A study of Mus musculus with 8 samples.

Results

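This report describes 9 genes that encode proteins of the secondary and tertiary granules of neutrophils, or proteins made with them, in mouse hematopoietic cells with and without PICALM. The genes are Camp, Ngp, Ltf, Lcn2, Mmp8, Mmp9, Cd177, Lrg1 and Wfdc21. They were chosen by name after their expression on these arrays was known, and every probe set whose only gene symbol was that of a member was used. This gave 10 probe sets of the 22626 measured, for 9 of 12393 genes, with 2 probe sets for Mmp9 and 1 for each other gene. Because the choice rested on the same comparison, the differences between Picalm-knockout and PICALM-rescued cells in these genes are described here and support nothing.

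The cells came from embryonic day 14 fetal liver of fit1 Picalm fit1-5R mouse embryos, on the strain B6(Cg)-TyrC-2J/J, whose mutation leaves a Picalm protein that does not function. They were immortalized with the fusion oncogene MLL-ENL, delivered by an MSCV-IRES-eGFP retrovirus, through serial replating in methylcellulose, so that knockout and rescued cells alike carry it. Each of 4 lines (PICALM6A, PICALM6B, PICALM6D and PICALM84) was measured on 1 array after transduction with the empty MSCVneo vector (Picalm-knockout) and on 1 array after transduction with human PICALM cDNA in that vector (PICALM-rescued), with selection in G418. All cells grew with IL-3 (5 ng/ml) and stem cell factor (50 ng/ml). To describe the cells, the log2 levels of the progenitor markers Kit, Cd34 and Hoxa9 averaged 10.05, 11.01 and 13.11 in knockout and 9.79, 9.76 and 13.16 in rescued cells. Flt3 and Hlf, of the same list, averaged 7.71 and 5.94 in knockout and 7.1 and 5.85 in rescued cells. These levels do not settle the cell type. The whole list is described with the markers of other cells. The rescue is a retroviral human cDNA whose level may exceed the physiological one, and no wild-type cells were measured. Each line and treatment has 1 array, so that a different response of the lines cannot be tested. Picalm had no probe set under its symbol alone, and the treatment labels were not checked against its level.

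Neutrophils make their granules in an order. Primary (azurophil) granules with myeloperoxidase and serine proteases form at the promyelocyte stage, secondary (specific) granules with lactoferrin at the myelocyte stage, and tertiary (gelatinase) granules later. The transcription factor C/EBP epsilon is needed for the expression of secondary granule genes. In RNA from a whole culture, a larger share of maturing cells and more RNA in each cell cannot be told apart.

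Values are RMA levels on the log2 scale, on which each array ran from about 3.15 to 14.87, and differences are rescued minus knockout on that scale, and a positive difference means more RNA with PICALM. A difference of 1 on this scale is a 2-fold change. Differences carry the standard error (SE) of a limma fit to all probe sets that blocks on the cell line (4 lines), and calls were made at an adjusted p under 0.12. A level is not comparable between probe sets, and no detection call was at hand.

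Promoter windows of members are shown because C/EBP factors act on this class of gene. RefSeq windows of 300 bases (GRCm38.p6, 250 bases before and 50 after the gene start) were at hand for 7 of the 9 members. The motif TTGCNNAA, searched on both strands, was found in 4 of the 7 (Ngp, Ltf, Lcn2 and Mmp8), against 10.8% of all 32851 windows of this length. Below, capitals mark these matches in the 4 windows, and the window of Camp, the gene with the largest difference, is given beside them. They are Camp at chr9:109849407-109849706, Ngp at chr9:110419558-110419857, Ltf at chr9:111019042-111019341, Lcn2 at chr2:32387690-32387989 and Mmp8 at chr9:7558179-7558478, with Camp and Lcn2 on the minus strand and the others on the plus strand.
Camp: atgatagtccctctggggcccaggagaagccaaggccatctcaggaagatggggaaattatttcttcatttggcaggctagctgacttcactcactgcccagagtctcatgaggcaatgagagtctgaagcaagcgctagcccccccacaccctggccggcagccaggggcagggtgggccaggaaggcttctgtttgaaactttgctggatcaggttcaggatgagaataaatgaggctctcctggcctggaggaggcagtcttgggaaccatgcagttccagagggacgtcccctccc
Ngp: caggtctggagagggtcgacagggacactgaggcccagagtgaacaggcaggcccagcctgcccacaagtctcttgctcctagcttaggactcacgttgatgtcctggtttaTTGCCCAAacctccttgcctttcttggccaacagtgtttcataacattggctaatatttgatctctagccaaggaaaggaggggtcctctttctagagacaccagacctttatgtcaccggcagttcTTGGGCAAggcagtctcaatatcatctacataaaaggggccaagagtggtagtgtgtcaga
Ltf: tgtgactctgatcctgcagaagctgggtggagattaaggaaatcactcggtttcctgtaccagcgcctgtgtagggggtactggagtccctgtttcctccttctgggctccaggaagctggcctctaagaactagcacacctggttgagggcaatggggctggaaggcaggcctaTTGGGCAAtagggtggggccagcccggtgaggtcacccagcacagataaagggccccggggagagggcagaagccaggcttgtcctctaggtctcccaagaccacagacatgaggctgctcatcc
Lcn2: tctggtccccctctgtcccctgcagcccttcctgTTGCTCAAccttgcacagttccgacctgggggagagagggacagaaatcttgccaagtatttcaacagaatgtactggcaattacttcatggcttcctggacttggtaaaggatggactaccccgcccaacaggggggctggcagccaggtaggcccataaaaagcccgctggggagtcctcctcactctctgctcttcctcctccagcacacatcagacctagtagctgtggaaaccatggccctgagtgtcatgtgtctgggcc
Mmp8: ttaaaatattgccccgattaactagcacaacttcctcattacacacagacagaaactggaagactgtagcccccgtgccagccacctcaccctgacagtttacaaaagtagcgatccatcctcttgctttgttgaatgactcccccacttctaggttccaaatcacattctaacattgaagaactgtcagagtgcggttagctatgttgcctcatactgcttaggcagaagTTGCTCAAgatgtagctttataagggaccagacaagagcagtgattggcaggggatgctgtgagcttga
Counted from the gene start, the 2 matches in Ngp began at -138 and -11, that in Ltf at -75, that in Lcn2 at -216 and that in Mmp8 at -19. Matches of the PU.1 motif GAGGAAG (Lcn2 and Mmp8, 13.6% of all windows), the RUNX motif TGTGGT (Ltf, 16.8%), the GFI1 core AAATC (Ltf, Lcn2 and Mmp8, 35.9%) and the TATA box TATAAA (Mmp8, Cd177 and Lrg1, 13.6%) were also counted on both strands. The TATAAA matches began at -40 in Cd177, at 11 in Lrg1, after the gene start, and at -3 in Mmp8, on the opposite strand. A match describes letters and not binding, and a window without one says nothing about the factor.

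With PICALM, 7 of the 9 genes were over 2-fold higher on average, and each of these was higher in every one of the 4 lines. These are Camp, Ngp, Ltf, Lcn2, Cd177, Lrg1 and Wfdc21, with differences of 1.43 to 2.33. The metalloproteinase genes Mmp8 and Mmp9 differed by 0.33 and 0.17. Over all probe sets, 0.225% were over 2-fold higher and 0.0884% over 2-fold lower, and 12.0% were higher and 11.8% lower in all 4 lines. In 6 genes every rescued array lay above every knockout array, as did 1.88% of all probe sets, and the opposite held for 0 members and 1.57% of all probe sets. The median over the 9 genes was 1.65, beside 0.003 over all probe sets. These counts describe how the members were chosen.

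**Figure D1:**
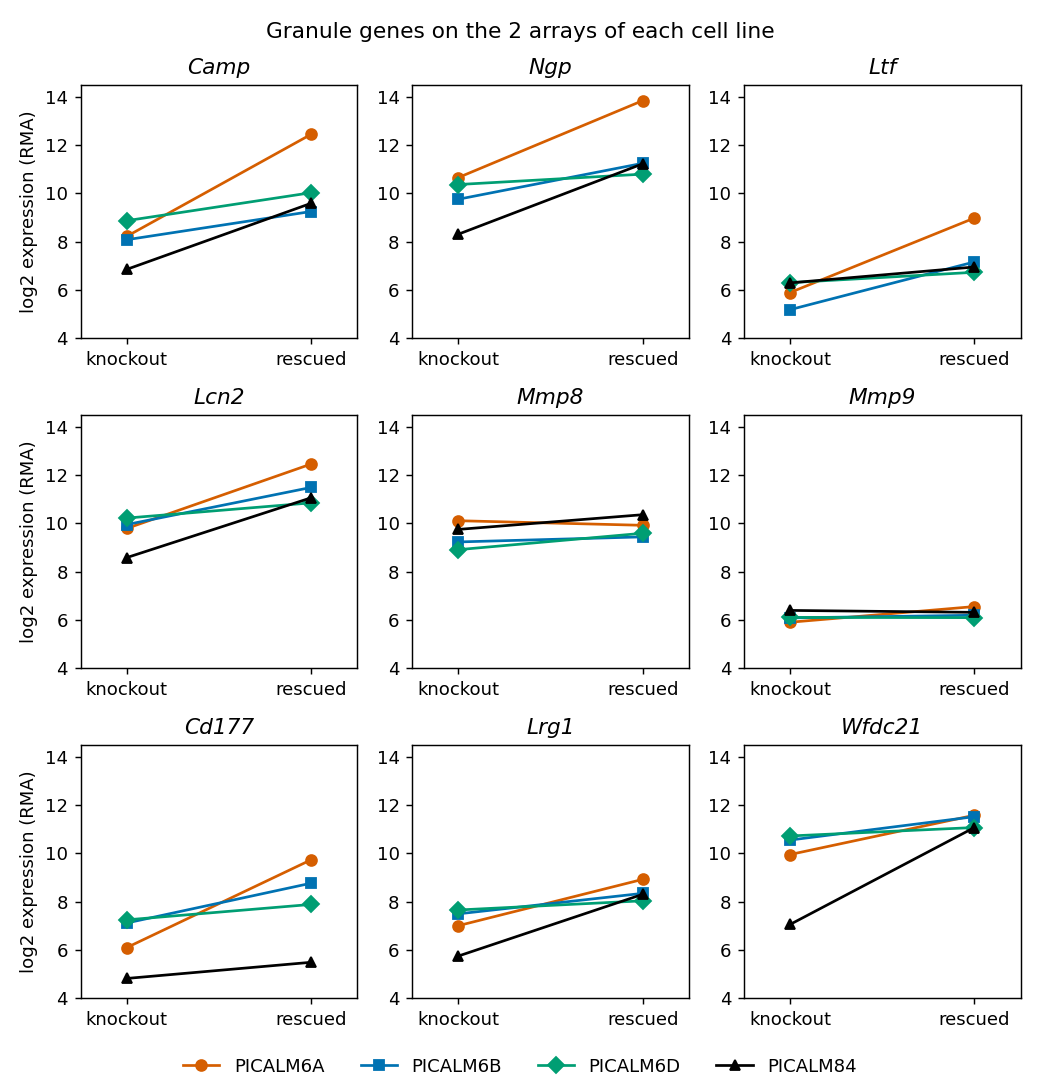
RMA log2 expression (y axis) of the 9 genes on the knockout and the rescued array (x axis), with a line and symbol for each cell line and the brighter probe set for Mmp9. Line PICALM6A ends highest in every panel except that of Mmp8, and line PICALM84 starts lowest in 6 panels.

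Granule matrix proteins are described before membrane proteins and proteases. Camp encodes the cathelicidin precursor, from which an antimicrobial peptide is cut. Its knockout levels were 8.22 in PICALM6A, 8.08 in PICALM6B, 8.87 in PICALM6D and 6.85 in PICALM84, and its rescued levels were 12.45, 9.25, 10.03 and 9.59. The lowest rescued array lay 0.39 above the highest knockout array, and the rescued PICALM6A array stood well above the rest. The difference was 2.33 (SE 0.54, n = 4 lines), a fold of 5.02, and ran from 2.24-fold in PICALM6D to 18.7-fold in PICALM6A.

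Ngp, the neutrophilic granule protein, is related to the cathelicidins. Its knockout levels were 10.66, 9.76, 10.37 and 8.31 in lines PICALM6A, PICALM6B, PICALM6D and PICALM84, and its rescued levels 13.85, 11.25, 10.80 and 11.23. The groups were separated by 0.13, between rescued PICALM6D and knockout PICALM6A. The difference was 2.01 (SE 0.47), a fold of 4.02.

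Ltf encodes lactoferrin, the iron-binding protein that defines secondary granules. It was at 5.89, 5.18, 6.30 and 6.29 in the knockout cells of the lines in the same order and at 8.98, 7.16, 6.73 and 6.95 in the rescued cells. The groups did not overlap, and rescued PICALM6A again lay above the other 7 arrays. The difference was 1.54 (SE 0.45) and was 1.02 without line PICALM6A.

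Lcn2 encodes lipocalin, which binds bacterial siderophores and so withholds iron. It was at 9.79, 9.95, 10.22 and 8.58 in knockout and at 12.46, 11.49, 10.85 and 11.06 in rescued cells. The gap between the groups, 0.64, was the widest among the members. The difference was 1.83 (SE 0.34), a fold of 3.56.

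Wfdc21 encodes a small secreted protein with a whey acidic protein core. It was at 9.95, 10.55, 10.72 and 7.05 in knockout and at 11.58, 11.52, 11.07 and 11.07 in rescued cells. The knockout array of PICALM84 lay far below the other 3, and the rescued arrays lay within 0.51 of each other where the knockout arrays spanned 3.67. The difference was 1.74 (SE 0.58), and it was 0.98 without line PICALM84, where the fold within the line was 16.1.

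Lrg1 encodes a leucine-rich glycoprotein that neutrophils and liver secrete. It was at 7.0, 7.49, 7.65 and 5.74 in knockout and at 8.92, 8.34, 8.03 and 8.30 in rescued cells. As for Wfdc21, the largest difference was that of PICALM84 and the spread was narrower in rescued cells, 0.88 against 1.92. The mean difference was 1.43 (SE 0.36), a fold of 2.69.

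Cd177 encodes a membrane protein of secondary granules that also stands on the neutrophil surface. It was at 6.09, 7.11, 7.24 and 4.81 in knockout and at 9.73, 8.76, 7.88 and 5.48 in rescued cells. Each line was higher with PICALM, but the groups overlapped, because both arrays of PICALM84 lay below every array of the other lines. The difference was 1.65 (SE 0.51), and it was 0.99 without line PICALM6A, where the fold was 12.5.

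The metalloproteinase genes had the smallest mean differences of the members. Mmp8, the neutrophil collagenase, was at 10.11, 9.23, 8.91 and 9.75 in knockout and at 9.92, 9.44, 9.59 and 10.36 in rescued cells. It was lower by 0.19 in PICALM6A, the line in which Camp had its largest difference, and higher in the other 3 lines. The mean difference was 0.33 (SE 0.15, 95% interval -0.05 to 0.71), and it was 0.21 without PICALM6D and 0.50 without PICALM6A.

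Mmp9 encodes the gelatinase that names the tertiary granules. Its brighter probe set was at 5.90, 6.08, 6.10 and 6.39 in knockout and at 6.55, 6.19, 6.09 and 6.31 in rescued cells, with a difference of 0.17 (SE 0.13). It was higher in 2 lines, and without PICALM6A the difference was 0.01. The second probe set was at 5.42 to 5.50 in knockout and at 6.08, 5.68, 5.43 and 5.83 in rescued cells, with a difference of 0.29 (SE 0.11). Their mean levels stood at the 36.6 and 27.9 percentiles of all probe sets, the lowest among the members, while that of Mmp8 stood at the 75.9 percentile.

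**Figure D2:**
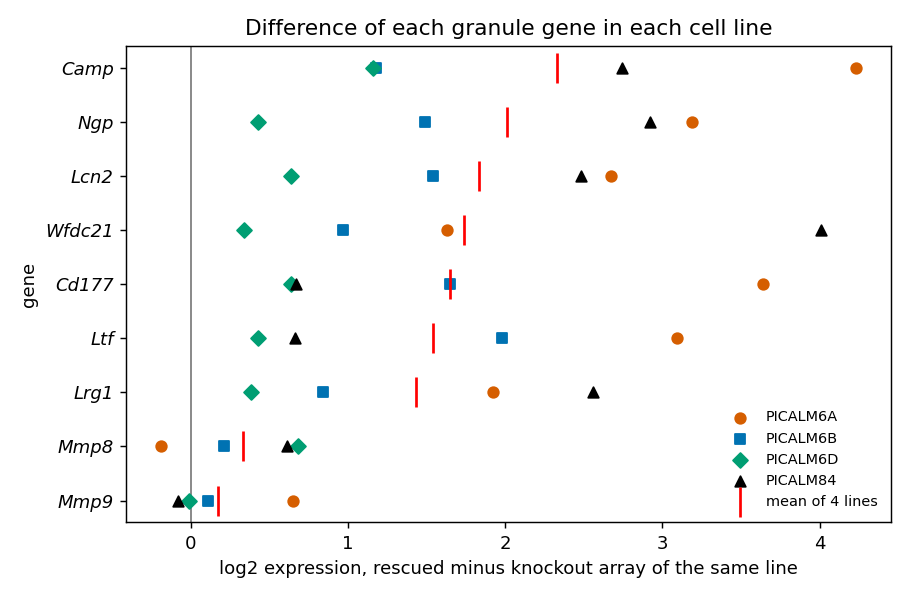
Difference in log2 expression between the rescued and the knockout array of a line (x axis) for each of the 9 genes (y axis), with a symbol for each line and a red bar for the mean. PICALM6D has the smallest difference for 7 genes, and Mmp8 and Mmp9 lie on both sides of 0.

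In the limma fit that blocks on cell line, 0 of the 10 member probe sets passed the threshold (adjusted p from 0.26 to 0.603), beside 0.00442% of all probe sets called higher and 0.0751% called lower. At an unadjusted p under 0.05 there were 8 of the 10, all higher, against 6.17% of all probe sets higher and 6.32% lower. Without the block 0 passed (adjusted p from 0.969 to 0.972), as for 0.0% of all probe sets, and 6 were at an unadjusted p under 0.05, all higher, against 4.75% of all probe sets in either direction and 2.58% on the higher side. SAM paired by line called 2, Camp and Lcn2, where it called 0.539% of all probe sets higher and 2.08% lower. The members were chosen on this same contrast, so these counts follow from the choice and are no test of it.

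The lines differed in rank, and the order depended on the measure. By the difference between the arrays of a line, PICALM6A was first in 6 genes (Camp, Ngp, Ltf, Lcn2, Cd177 and Mmp9), PICALM84 in 2 (Lrg1 and Wfdc21) and PICALM6D in 1 (Mmp8). PICALM6D had the smallest difference in 7. Among the 7 genes higher in all lines, PICALM6A was first in 5, and it was first in 26.0% of all probe sets higher in all 4 lines. The mean difference over the 9 genes was 2.31 in PICALM6A, 1.11 in PICALM6B, 0.52 in PICALM6D and 1.84 in PICALM84, where the median of all probe sets was between -0.01 and 0.008.

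By level in knockout cells the order was another one. PICALM6D was highest in 6 genes and PICALM84 lowest in 6. The mean knockout level was 8.18, 8.16, 8.49 and 7.08 in PICALM6A, PICALM6B, PICALM6D and PICALM84. In rescued cells PICALM6A was highest in 8 genes, and the means were 10.49, 9.27, 9.01 and 8.93. A line that is low in knockout cells has a larger difference by construction where the rescued levels are alike, so these ranks are not independent of each other. Of the 6 genes in which knockout PICALM84 was lowest, 4 were no longer lowest there after rescue (Camp, Ngp, Lcn2 and Lrg1). The range over the lines was smaller in rescued than in knockout cells in 5 of the 9 genes.

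Each member's difference within a line was also placed among those of all probe sets of the same pair of arrays, counted from the highest. Camp had the highest increase of all 22626 probe sets in PICALM6A, with Cd177 next and Ngp, Ltf and Lcn2 among the first 10. Among the first 10 were 4 members in PICALM6B, where Ltf held position 2, 1 in PICALM6D (Camp, position 9) and 1 in PICALM84 (Wfdc21, position 5). Among the first 50 were 7 members in PICALM6A and in PICALM6B, 4 in PICALM6D and 5 in PICALM84. Ltf and Cd177 were at positions 583 and 559 in PICALM84. Mmp8 was at position 37 in PICALM6D, 1958 in PICALM6B and 20319 in PICALM6A, and Mmp9 at 191 in PICALM6A and at 4747, 12461 and 14627 in PICALM6B, PICALM6D and PICALM84. The positions are descriptions of genes chosen for this contrast.

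Whether the level of a gene differed between lines, with the treatment in the model, was tested with an F-test of the 4 lines in limma. The F-test passed for 2 of the 10 member probe sets, Mmp8 (adjusted p = 0.0947) and Cd177 (adjusted p = 0.116). Over all probe sets 22.7% passed, a share near that of the members. The mean levels of the lines were not part of the choice. The test sets them against how unevenly the lines differed between their arrays, and the members were chosen on those differences. Their share is therefore not free of the choice. At an unadjusted p under 0.05 there were 3 (Mmp8, Cd177 and Ngp), against 29.3%, and at an adjusted p under 0.05 there were 0, against 10.8%. Averaged over both arrays, Mmp8 was at 10.02 in PICALM6A and 10.06 in PICALM84 but at 9.34 in PICALM6B and 9.25 in PICALM6D. Cd177 was at 7.91, 7.94 and 7.56 in PICALM6A, PICALM6B and PICALM6D and at 5.15 in PICALM84. Without PICALM84 and without PICALM6B 0 members passed, and without PICALM84 only 0.796% of all probe sets did. Without PICALM6D, Ngp, Lcn2 and Cd177 passed and Mmp8 did not.

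Across the 8 arrays the levels of the 7 genes other than Mmp8 and Mmp9 had a Pearson r of 0.41 to 0.97 (median 0.82) over their 21 pairs. Lcn2 and Lrg1 (0.97) and Camp and Ngp (0.96) were closest. Pairs with Mmp8 had r from -0.30 to 0.33. After the mean of each group was taken off, the 21 pairs had r from -0.10 to 0.95 (median 0.68), and pairs with Mmp8 had a median of -0.20. This takes off the average shift with PICALM and leaves the unequal shifts of the lines in. The arrays share lines and a common normalization, so these are descriptions over 8 points. Lcn2 was most like the mean of the other 8 members (r = 0.99), and Mmp8 least (r = 0.10).

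Among 20370 other probe sets with 1 symbol, the one most like the mean of the 9 members was that of Mapk13, a p38-type stress kinase (r = 0.986 over the 8 arrays), which differed by 0.69 (SE 0.13). It was followed by Il1f9, an interleukin-1 family cytokine (0.977, difference 0.68), Plcb1 (0.976), Rdh12 (0.974), Ceacam1, an adhesion molecule of granulocytes (0.971, difference 0.66), Atp1b1 (0.970), Dzip1 (0.969), Psenen (0.969), Rnasek (0.968) and 1810055G02Rik (0.968). Plcb1 and Psenen differed by 0.10 each. The brightest probe set of Ceacam1 is another one and differed by 1.03 (SE 0.30). The most opposite were Pola1, a subunit of DNA polymerase (-0.972), Numa1 (-0.971), Polrmt (-0.970), Zfp53 (-0.968) and Phgdh, the first enzyme of serine synthesis (-0.965), which differed by -0.11 to -0.21. The adjusted p of these 15 in limma ran from 0.257 to 0.448.

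Of 20 measured other genes of secondary and tertiary granules, out of 24 listed, 11 were higher and 0 lower in every line. Over all probe sets these shares were 12.0% and 11.8%. At an unadjusted p under 0.05, 6.17% of all probe sets were higher and 6.32% lower, and SAM called 0.539% higher and 2.08% lower. The same shares stand beside the lists below. The median difference of the list was 0.42, and 0.28 without PICALM84. The list is a broad one. Ltb4r1 in it encodes a receptor and not a granule protein, so the count and median are not about granule genes alone. The lists were not tested against each other. The largest were Chil3, a chitinase-like protein (1.84, SE 0.97), Ltb4r1, a leukotriene receptor (1.05, SE 0.20), Pglyrp1, which binds bacterial peptidoglycan (0.94, SE 0.24), and Itgam, an integrin chain that tertiary granules bring to the surface (0.72, SE 0.19). Chil3 was carried by PICALM84, at 7.21 in knockout and 12.85 in rescued cells, and differed by -0.18 in PICALM6D. Without PICALM84 its difference was 0.57. In limma 0 passed in either direction, 12 were at an unadjusted p under 0.05 (all higher), and SAM called Ltb4r1 higher.

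Other genes of maturing neutrophils had a median of 0.49, which was 0.30 without PICALM6A and 0.75 without PICALM6D. Of 16 measured, 8 were higher and 2 lower in all 4 lines, beside 12.0% and 11.8% of all probe sets. Stfa3, a stefin (2.11, SE 0.64), S100a9 and S100a8, the subunits of calprotectin (1.53, SE 0.50 and 1.05, SE 0.48), and Itgb2l, an integrin chain of neutrophils (1.44, SE 0.36), were higher in all 4 lines, and Hdc, which makes histamine (1.09, SE 0.43), in 3. In knockout cells S100a9 was at 12.78 to 13.50 and S100a8 at 13.64 or above in 3 lines, and they were at 10.43 and 10.95 in PICALM84. In rescued cells S100a9 was at 13.82 to 14.42 and S100a8 at 13.93 to 14.38, near the top of the scale. In PICALM6A, PICALM6B and PICALM6D, S100a9 differed by 1.64, 0.74 and 0.34 and S100a8 by 0.74, 0.34 and 0.15. The small ones among these differences say little at such levels. Without PICALM84 the differences of S100a9, S100a8, Stfa3 and Hdc were 0.90, 0.41, 1.28 and 0.55. In limma 0 passed, and 8 higher and 2 lower were at an unadjusted p under 0.05, against 6.17% and 6.32% of all probe sets. SAM called Clec4e, a lectin receptor (-0.27, SE 0.06), lower.

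Among 11 measured genes of azurophil granules and promyelocytes, every line was higher with PICALM for 6 and lower for 0. These shares were 12.0% and 11.8% over all probe sets, and the median of the list was 0.13. Several of its genes lay near the top of the scale in both groups, so that their small differences say little. Mpo was at 13.97 ± 0.07 (SD, n = 4) in knockout and 14.09 ± 0.03 in rescued cells, Prtn3 at 14.15 ± 0.23 and 14.27 ± 0.06, and Ctsg at 14.18 ± 0.18 and 14.31 ± 0.04. Elane, the neutrophil elastase gene, differed by 0.92 (SE 0.41), with 9.91 in knockout PICALM84 and 13.26 to 13.67 in the other knockout arrays. Without that line its difference was 0.37. Cst7 (0.46, and 0.13 without PICALM84), Ms4a3 (0.45, and 0.27) and Ctsc (0.33) came next. The mean difference of the list was 0.68 in PICALM84 and 0.08 to 0.19 in the other lines. In limma 0 passed, 4 were at an unadjusted p under 0.05 (all higher), against 6.17% of all probe sets, and SAM called 0.

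**Figure D3:**
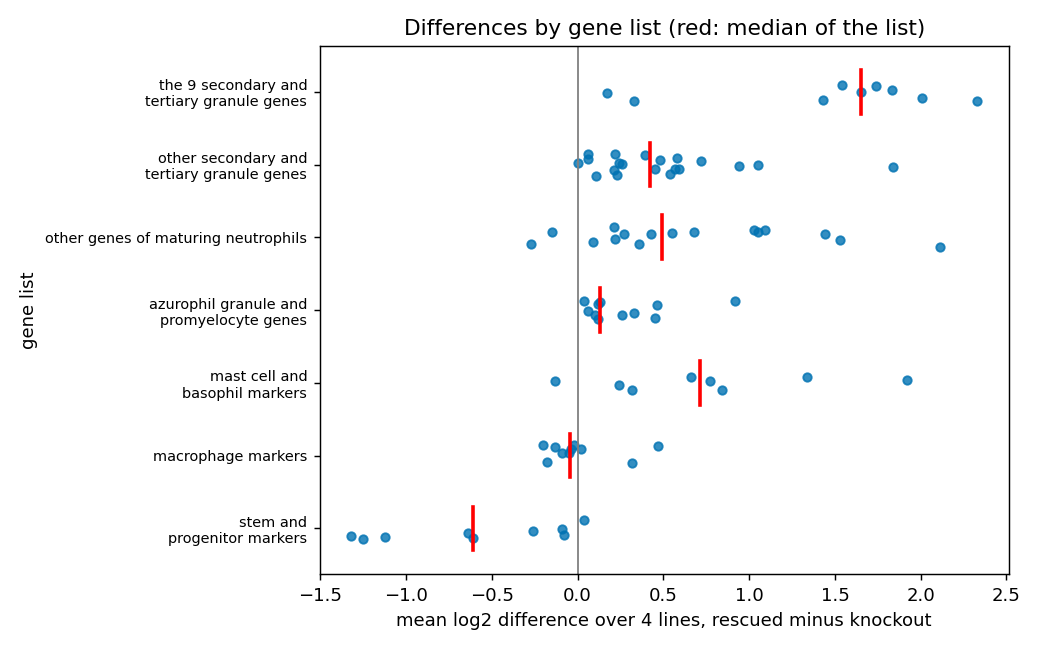
Mean log2 difference over the 4 lines, rescued minus knockout (x axis), for each measured gene of 7 gene lists (y axis), with a blue point for each gene and a red bar for the median of the list. The medians are 1.65 for the 9 granule genes, 0.42 for other secondary and tertiary granule genes, 0.13 for azurophil genes and -0.61 for stem and progenitor markers.

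Among 19 measured regulators of granule genes, every line was higher for 10 and lower for 2, beside 12.0% and 11.8% of all probe sets. The median was 0.22. Cebpe, which encodes C/EBP epsilon, had no probe set under its symbol alone and was not analysed here. Ets1 (0.84, SE 0.12) and Klf5 (0.71, SE 0.21) had the largest differences. Ets1 was at 7.79, 7.54, 8.27 and 5.01 in the knockout and 9.02, 8.26, 8.77 and 5.91 in the rescued cells of PICALM6A, PICALM6B, PICALM6D and PICALM84. Gfi1, a repressor needed for granulocytes, differed by 0.56 (SE 0.14), Runx1 by 0.37 (SE 0.17, and 0.14 without PICALM84) and Spi1, which encodes PU.1, by 0.23 (SE 0.06). Cebpa, which starts the granulocyte program, differed by 0.05 (SE 0.05), Myb by 0.04 (SE 0.04) and Irf8, which favours monocytes, by -0.13 (SE 0.08). In limma 0 passed, the lowest adjusted p being that of Ets1 (0.191). At an unadjusted p under 0.05 there were 7 (all higher), against 6.17% of all probe sets, and SAM called Ets1 higher.

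**Figure D4:**
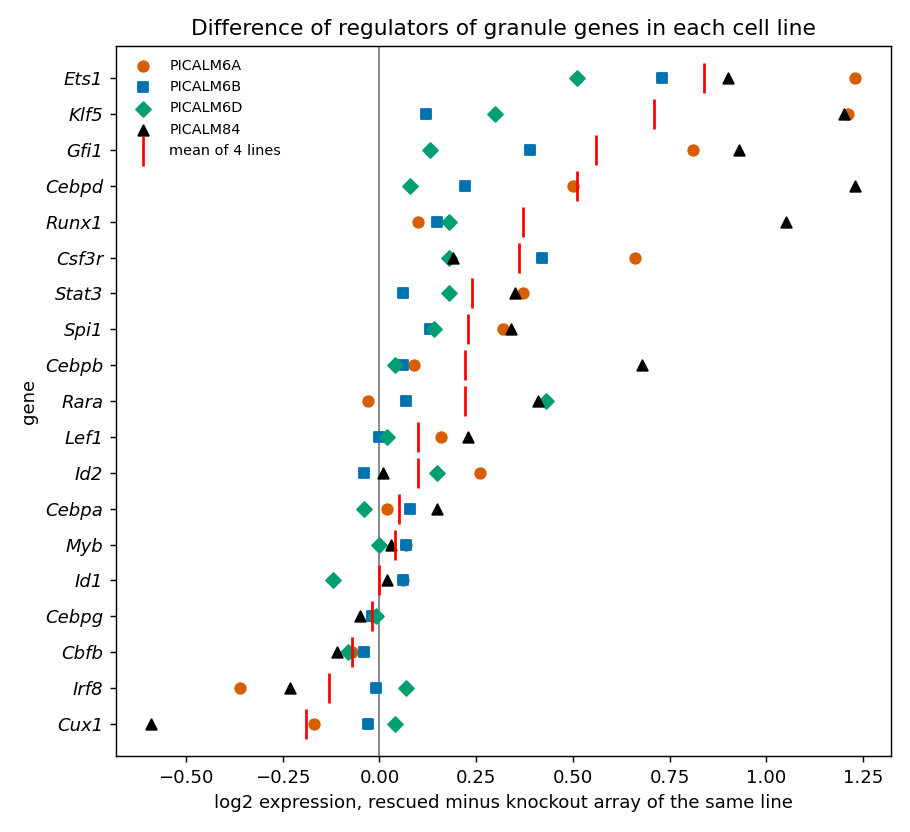
Difference in log2 expression between the rescued and the knockout array of a line (x axis) for the 19 measured regulators (y axis), with a symbol for each line and a red bar for the mean. Ets1, Klf5, Gfi1 and Cebpd lie above 0 in every line, and Cebpa and Myb lie close to 0.

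Of 20 measured inhibitors and partners of the members, 3 were higher and 3 lower in all 4 lines, beside 12.0% and 11.8% of all probe sets, with a median of 0.04. Fpr2, a receptor for the cathelicidin peptide, differed by 0.57 (SE 0.22), Slpi, an inhibitor of neutrophil elastase, by 0.34 (SE 0.17), and Serpinb1a, another one, by 0.26 (SE 0.10). Pecam1, which encodes a binding partner of human CD177, differed by -0.36 (SE 0.12). The metalloproteinase inhibitor Timp1 was at 5.28 in knockout and 5.33 in rescued cells. In limma 0 passed, 3 higher and 3 lower were at an unadjusted p under 0.05, against 6.17% and 6.32% of all probe sets, and SAM called 0.

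Markers of other cells are given beside the granule genes, and their part in the result was not tested. Of 8 measured mast cell and basophil markers, 5 were higher in all 4 lines, beside 12.0% of all probe sets. The median was 0.72, and 0.33 without PICALM84. Cpa3 differed by 1.92 (SE 0.42), Cma1 by 1.34 (SE 0.50, and 0.73 without PICALM6A), Fcer1a by 0.84 (SE 0.41, and 0.33 without PICALM84) and Mcpt8 by 0.77 (SE 0.25, and 0.47 without PICALM84). Their summed level (the log2 of the sum of unlogged values) ran from 9.35 to 12.15 in knockout and from 9.45 to 13.39 in rescued arrays. Of 5 eosinophil markers, 0 were higher in all 4 lines, beside the same 12.0%. Prg2 (1.74, SE 0.98) and Epx (1.09, SE 0.68) had the largest values, which were 0.46 and 0.16 without PICALM84, where the differences were 5.57 and 3.88. Siglecf differed by 0.27 and Il5ra by 0.09, and the summed level ran from 7.02 to 8.86 and from 7.19 to 11.42.

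Of 10 macrophage markers, 1 was higher (Mrc1, 0.32) and 1 lower (Csf1r, -0.18) in all 4 lines. These shares are near the 12.0% and 11.8% of all probe sets. The median was -0.05, with Adgre1 at 0.47 and Marco at -0.20. Their summed level was 12.11 to 12.95 in knockout and 12.04 to 12.84 in rescued arrays. Of 9 stem and progenitor markers, 4 were lower in all 4 lines and 0 higher, beside 11.8% and 12.0% of all probe sets. The median was -0.61. Sox4 differed by -1.32 (SE 0.16), Cd34 by -1.25 (SE 0.24), Mycn by -1.12 (SE 0.27) and Mef2c by -0.64 (SE 0.07). The others were Flt3 (-0.61), Kit (-0.26), Hlf (-0.09), Meis1 (-0.08) and Hoxa9 (0.04). The summed level was 15.04 to 15.30 in knockout and 14.23 to 14.82 in rescued arrays, without overlap. This sum weighs bright genes most. Mycn alone was at 14.10 to 14.22 in knockout, near the top of the scale, and at 12.36 to 13.72 in rescued arrays. The sum therefore does not speak for the whole list. Of all single probe sets, 1.57% had every rescued array below every knockout array. Limma passed 0 genes of these 4 lists, with 4 mast cell, 0 eosinophil, 2 macrophage and 5 progenitor genes at an unadjusted p under 0.05, and SAM called Cpa3 higher and Sox4, Cd34, Mycn and Mef2c lower. Over all probe sets, 6.17% were higher and 6.32% lower at that p, and SAM called 0.539% higher and 2.08% lower. No marker was at 0, since RMA gives every probe set a level.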

How the data were processed

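Total RNA of 8 samples was measured on Affymetrix mouse arrays (Mouse430A 2 per the labels). RMA was applied by the authors before deposit, so the deposited table holds log2 levels, which were used as given. Software and probe definitions are not given in the sources used here. From 22690 rows 64 controls were left out. Of the 22626 probe sets tested, 20380 had 1 gene symbol in GEO's platform annotation, 691 several and 1555 none. Gene IDs were looked up in RefSeq (GRCm38.p6), and 0 symbols changed. Array medians ran from 7.323 to 7.349, and the number of arrays limits the precision.

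Rescued and knockout arrays were compared with limma 3.58.1 (R 4.3.3, two-sided, Benjamini-Hochberg over all probe sets, adjusted p under 0.12, close to the FDR of the methods), with the cell line as a block. Both arrays of a line come from that line, which pairs them, and the correlation of the paired deviations from the group means was 0.623 to 0.811. Differences between lines were tested with an F-test in the same fit. SAM, paired by line, used all sign changes. For each gene of a list the probe set with the highest mean was taken.

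On simulated data with 100 of 22626 probe sets shifted by 0.5 and 100 by 1, the fit with the block recovered 68 and 92, with 23 false of 183 calls. Those probe sets were picked at random and shifted equally in every line. The members differed unevenly over the lines, so these shares do not tell how often genes like them would be called. Simulated shifts of 1 line by 1 and by 2 gave 72 and 94 of 100 in the F-test. Those probe sets were also picked at random, and no other probe set was given a difference between lines. These shares do not tell how often the F-test would call the members either.

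The alternatives were no block, SAM, quantile normalization, median centring, leaving out the dimmest 40% of probe sets, a variance trend with robust settings, a threshold of 0.05, the mean over probe sets, and leaving out each line. Differences of single list genes without a line were added after seeing the data. The members, the lists and the named genes (the 4 largest absolute differences of a list, some fixed regulators and proteases, and the 10 most like and 5 most opposite patterns) were chosen with earlier results of these data known. Some genes outside that rule (Cebpd, Clec4e and Timp1 among them) were named after their values were seen. The samples of a group are different lines. With the block, p-values of the treatment rest on how unevenly the lines differed between their arrays, and without it on the spread between lines. The F-test sets the differences between lines against that same unevenness.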

Additional observations from a re-analysis of the deposited data

Results flagged for a closer look

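The Ngp level of the rescued PICALM6A array, 13.85, lay far from the other 3 rescued arrays, which were at 10.80 to 11.25. Its gap to the next array was 0.852 of the range of the group, above the 95% critical value of Dixon's test for 4 arrays. It was the single such array among 20 groups of 4 arrays (10 probe sets, knockout and rescued), where chance gives about 1 in 20.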

How the results depend on the processing

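For the 9 granule genes, 89 recomputed differences of single genes kept their sign and moved by less than the spread between the lines. Most of these could hardly come out otherwise. Dropping the block, the variance trend and the filter leave the mean difference of a gene unchanged. Leaving out a line moves it by less than that spread by construction. The 89 therefore do not show that the differences are stable. The median over the 9 genes, 1.65, was 1.65 without the replicate block, which cannot change it. It ran from 1.26 (without PICALM6A) to 1.99 (without PICALM6D). SAM called 2 member probe sets where limma called 0 under each setting run, with or without the block. Leaving out the dimmest 40% drops Mmp9.

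Counts over all probe sets were unstable. With 1 higher and 17 lower in the main setting, there were 0 and 0 with no replicate block, 19 and 80 with the trend and robust settings, 0 and 4 at a threshold of 0.05, 122 and 470 with SAM, and from 0 to 7 and from 0 to 42 when a line was left out. Without the dimmest 40% there were 0 higher. In the F-test between lines, 1 member passed with the trend and robust settings, 0 at a threshold of 0.05 (2440 of all probe sets against 5134) and 0 to 3 when a line was left out (180 to 4128 of all probe sets, the lowest without PICALM84). Leaving out a line moved the medians of maturing neutrophil genes (0.30 to 0.75), mast cell and basophil markers (0.33 to 0.93), regulators (0.13 to 0.27), inhibitors and partners (0.0 to 0.07), macrophage (-0.11 to 0.05), eosinophil (0.14 to 0.44) and progenitor markers (-0.68 to -0.28), and let 0 to 2 progenitor markers pass, Sox4 and Mef2c without PICALM84. The causes were not tested.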

Other observations

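Camp, Ngp and Ltf lie on chromosome 9 with Ngp between the other two in the RefSeq gene order. Of the protein-coding genes from Camp to Ltf, 18 others were measured. The median difference between rescued and knockout cells over them was 0.02, the highest was 0.22 (Prss42) and the lowest -0.21, and 3 (16.7%) were higher in all 4 lines, against 12.0% of all probe sets. This interval was chosen after the values of its members were seen.

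Erythroid and megakaryocyte markers (7 measured, median -0.01) held 0 genes higher and 1 lower in all 4 lines (Pf4, -0.40), and Klf1 differed by 0.43. Lymphoid markers (7 measured, median -0.03) held 1 higher, Nkg7 (0.48, SE 0.10). Over all probe sets, 12.0% were higher and 11.8% lower in all 4 lines, so single genes in lists of this size are no result. Limma passed 0 of the markers of these lists, with 0 and 1 at an unadjusted p under 0.05. At that p, 6.17% of all probe sets were higher and 6.32% lower.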
